A study of Mus musculus with 167 samples.

Results

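The genes described are 10 regulators of early lymphoid fate, Ikzf1, Ikzf3, Bcl11a, Satb1, Mef2c, Notch1, Tcf3, Tcf4, Foxo1 and Sox4, of 38924 genes in the table. They were listed by name and found by matching the table's Ensembl identifiers to gene symbols, and all 10 have a row. They were followed in individual lymphoid-primed multipotent progenitors (LMPPs) from marrow of C57Bl/6J females aged 14 months and 4 months, with no engineered allele or treatment named for either age. LMPPs were sorted as lineage-negative, Sca-1-positive, c-Kit-positive, CD150-negative, CD34-positive cells with high Flt3, and single cells were captured on a Fluidigm C1 chip for amplification of their RNA. For either age 84 columns are in the table, each a cell, while 83 labelled cells are of 14 months and 84 of 4 months. The 14-month columns carry a set number, 4 for 45 columns and 5 for 39, that the sources used here do not explain. The 4-month columns carry none, so age and capture cannot be told apart. No label names an animal or says whether animals were pooled, so an age is a single sample here, without replicate animals. The differences carry no test, and the spread given is that between cells.

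These factors act in layers. Ikaros (Ikzf1) and the E proteins open and maintain the lymphoid program in multipotent progenitors, Mef2c favours lymphoid over myeloid fate, and Bcl11a is needed for B cell development. Notch1 is the receptor whose cleaved intracellular part drives T cell fate in the thymus, and Foxo1 turns on interleukin-7 receptor and Rag genes further along the B lineage. Values are TPM, transcript abundances scaled for length that sum to the same total in each cell. Detection of a gene in a cell means TPM 1 or more. Analysis was limited to the 130 cells in which 1000 genes or more reached that value: 66 of 14 months (29 of set 4 and 37 of set 5) and 64 of 4 months.

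RefSeq's promoter table of build GRCm38.p6 (mm10) holds 8 of the 10 genes, all but Ikzf3 and Tcf4. Shown are the promoters, 250 bases before to 50 after the most upstream start listed, of 4 of the 5 genes found in most cells. They are given 5′ to 3′ on the gene's strand, with matches to 5 motifs in capitals. The searched motifs, on both strands, were the E-box CAGGTG, the Ikaros core TGGGAA, the forkhead motif TGTTTAC, the Sox motif ACAAAG and the Ets motif CCGGAAGT. None of the matches shown overlaps another. The intervals are chr11:11685675-11685974 (plus strand) for Ikzf1, chr11:24080445-24080744 (plus strand) for Bcl11a, chr17:51833241-51833540 (minus strand) for Satb1 and chr13:83503784-83504083 (plus strand) for Mef2c.
Ikzf1: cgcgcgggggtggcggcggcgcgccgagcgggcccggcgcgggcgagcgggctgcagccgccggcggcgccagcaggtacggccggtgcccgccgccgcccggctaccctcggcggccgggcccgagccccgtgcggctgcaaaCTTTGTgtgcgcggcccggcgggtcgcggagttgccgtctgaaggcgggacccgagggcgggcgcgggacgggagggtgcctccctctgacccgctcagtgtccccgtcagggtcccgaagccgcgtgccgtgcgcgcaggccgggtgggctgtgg
Bcl11a: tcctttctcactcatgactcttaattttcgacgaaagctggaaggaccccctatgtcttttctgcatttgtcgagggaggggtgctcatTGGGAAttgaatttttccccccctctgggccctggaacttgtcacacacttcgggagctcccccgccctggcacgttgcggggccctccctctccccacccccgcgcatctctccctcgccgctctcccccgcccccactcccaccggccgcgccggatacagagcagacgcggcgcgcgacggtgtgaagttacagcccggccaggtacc
Satb1: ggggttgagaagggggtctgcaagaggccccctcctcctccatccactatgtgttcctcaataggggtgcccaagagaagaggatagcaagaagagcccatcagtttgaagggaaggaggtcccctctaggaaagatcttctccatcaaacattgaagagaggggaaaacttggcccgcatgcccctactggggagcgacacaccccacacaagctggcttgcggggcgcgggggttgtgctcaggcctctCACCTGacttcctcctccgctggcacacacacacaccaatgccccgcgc
Mef2c: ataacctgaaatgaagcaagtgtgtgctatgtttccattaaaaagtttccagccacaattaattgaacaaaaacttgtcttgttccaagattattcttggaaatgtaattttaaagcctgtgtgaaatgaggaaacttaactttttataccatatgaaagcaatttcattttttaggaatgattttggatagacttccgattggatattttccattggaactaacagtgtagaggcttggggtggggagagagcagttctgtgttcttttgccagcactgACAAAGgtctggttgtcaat
The 4 windows differ in base composition. The Ikzf1 window has 52 CpG dinucleotides and 81.3% G and C, more CpG than 99.4% of the 32851 promoter windows of the table, and the Mef2c window has 1 CpG and 35.7% G and C. Bcl11a has 23 CpG and Satb1 has 8, against a median of 7 over all windows. The Ikzf1 and Mef2c windows hold 1 ACAAAG match each, found in 18.7% of all windows. The Bcl11a window holds 1 TGGGAA match (25.6% of windows) and the Satb1 window 1 CAGGTG match (20.2%). Neither TGTTTAC (3.65% of windows) nor CCGGAAGT (3.89%) occurs in these 4 windows. These matches are descriptions of the letters and not binding sites.

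Cells of 4 months had more genes detected, with a median of 3281 genes at 14 months (1021 to 6160) and 3974.5 at 4 months (1066 to 6848). Within the 14-month cells the medians were 3230 in set 4 and 3376 in set 5. Mitochondrial transcripts took a median 17.7% of TPM at 14 months and 12.4% at 4 months. Some 14-month columns were alike beyond what other cells showed. Of 8385 pairs of kept cells, 4 pairs had a Pearson correlation above 0.75 across measured genes, the next highest being 0.70 and the median 0.40. The most alike pair, at 0.97, joins a set 4 column and a set 5 column, with Ikzf1 at 50.8 and 58.5 TPM and Mef2c at 48.3 and 48.1 TPM. The same 6 genes of the list were detected in both columns of that pair. The other 3 pairs lie within set 5 and involve 5 cells. The differences, shares, members per cell, co-detection of pairs and likeness were therefore also computed without 1 cell of each pair, which removes 3 cells.

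The sorted phenotype was checked by its genes. Flt3 was detected in 92.4% of 14-month and 100% of 4-month cells and Cd34 in 87.9% and 89.1%. The Sca-1 gene Ly6a reached 37.9% of 14-month and 39.1% of 4-month cells and Kit 53.0% and 67.2%, while Slamf1, which encodes CD150, was at 0 in every kept cell. Of the B cell list, Pax5 and Igll1 were at 0 in every kept cell. Of the T cell list, Cd3e, Cd3g and Bcl11b were at 0 in every kept cell, and of the NK cell list, Ncr1, Gzmb and Prf1. Other genes of these lists were present: Cd79b in 24.2% of 14-month and 39.1% of 4-month cells, Lck in 27.3% and 46.9%, and Nkg7 in 72.7% and 54.7%.

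The 10 genes ranged from commonly detected to never detected, without a sharp break. Tcf4, Mef2c, Ikzf1, Satb1 and Bcl11a were each found in most cells of both ages. Notch1 and Sox4 were found in an intermediate share, Tcf3 in fewer, Foxo1 in single cells and Ikzf3 in none. The lowest value was 0 TPM for every gene in both ages, so the median and the highest cell are given. Mean log2(TPM+1), the log2 mean, has its SD over cells beside it.

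**Figure D1:**
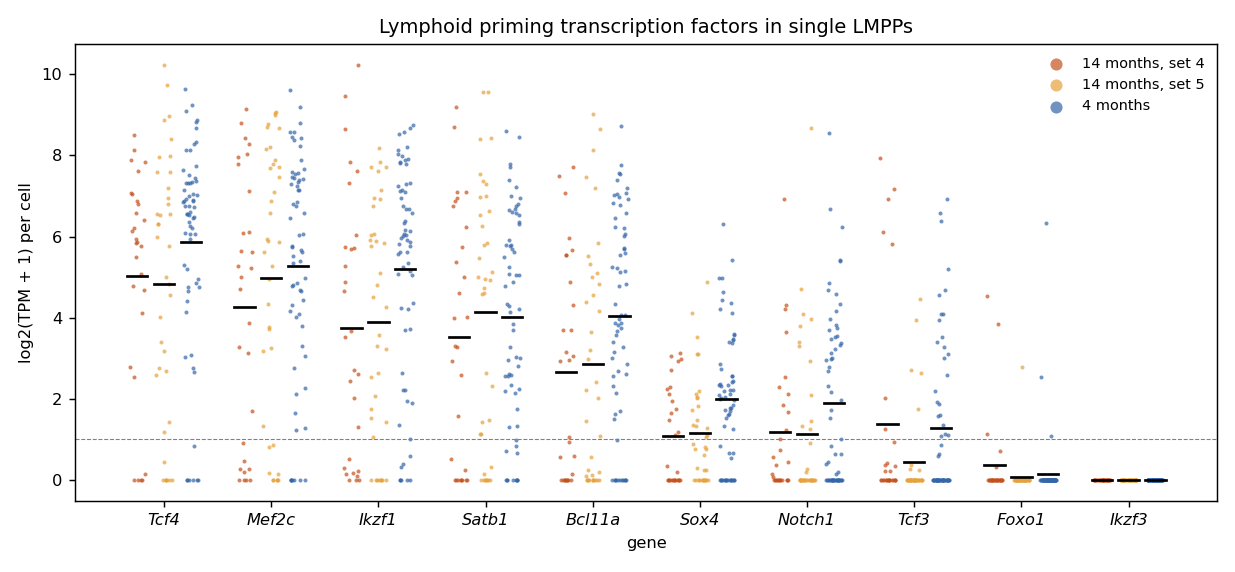
Level of each gene in each of the 130 kept cells as log2(TPM+1) on the vertical axis, by gene and by set, with 14-month set 4, 14-month set 5 and 4 months from left to right; points are cells spread sideways at random, black bars are means and the dashed line is TPM 1. Every gene but Ikzf3 has cells at 0 and cells well above it in both ages, and the 3 sets overlap throughout.

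Ikzf1 encodes Ikaros, a zinc finger protein that is required in the mouse for lymphoid priming of multipotent progenitors. The gene lies on chromosome 11, 11685003 to 11772926 (mm10). Its median was 11.3 TPM and its highest cell 1202 TPM at 14 months, against a median of 60.2 TPM and a highest cell of 432 TPM at 4 months. The middle of the distribution was thus lower at 14 months although the single highest cell was a 14-month cell. Mean log2(TPM+1) was 3.83 (SD 3.01) at 14 months and 5.20 (SD 2.67) at 4 months. Among the cells with Ikzf1, the median was 50.8 TPM at 14 months, against 67.8 TPM at 4 months. At least 100 TPM was reached by 15 of the 66 cells of 14 months and by 23 of the 64 cells of 4 months. Ikzf1 was detected in 49 of 66 cells of 14 months (74.2%, exact 95% binomial confidence interval (CI) 62.0 to 84.2%) and in 56 of 64 cells of 4 months (87.5%, CI 76.8 to 94.4%). Such CIs cover counting error only.

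Ikzf3 encodes Aiolos, the Ikaros relative of later B cell stages (chromosome 11, 98464902 to 98546031). It was listed at 0 TPM in every one of the 130 kept cells. With 3 cells as the limit for a count of 0, detection in up to 4.55% of 14-month and 4.69% of 4-month cells is allowed, and the exact CI reaches 5.44% and 5.60%. These limits are for detection at TPM 1 and not for expression, since depth is unknown. The 38 columns with fewer genes were also at 0.

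Bcl11a encodes a zinc finger repressor that B cell development requires (chromosome 11, 24078056 to 24174123). Its median was 4.00 TPM and its highest cell 518 TPM at 14 months, against 15.2 TPM and 422 TPM at 4 months. Mean log2(TPM+1) was 2.77 (SD 2.79) at 14 months and 4.04 (SD 2.56) at 4 months. It was detected in 38 of 66 cells (57.6%, CI 44.8 to 69.7%) at 14 months and 52 of 64 (81.2%, CI 69.5 to 89.9%) at 4 months, so the intervals overlap by a narrow margin. The shares in the sets were 55.2% in set 4 and 59.5% in set 5. Another 9 cells of 14 months and 1 cell of 4 months had a value above 0 but under 1 TPM.

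Satb1 encodes a chromatin organizer best known from thymocytes (chromosome 17, 51736187 to 51833290). Its median was 23.2 TPM and its highest cell 755 TPM at 14 months, against 18.0 TPM and 385 TPM at 4 months. Mean TPM was likewise higher at 14 months, 83.2 TPM against 52.0 TPM, while the mean log2(TPM+1) was 3.87 (SD 3.11) at 14 months and 4.02 (SD 2.55) at 4 months. The median level and the share ran in opposite directions, since Satb1 was detected in 71.2% of 14-month cells (CI 58.7 to 81.7%) and 81.2% of 4-month cells (CI 69.5 to 89.9%). In cells that had it, the median was 43.7 TPM at 14 months, against 32.7 TPM at 4 months.

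Mef2c encodes a MADS-box factor that favours lymphoid over myeloid output of multipotent progenitors in the mouse (chromosome 13, 83504034 to 83667080). Its median was 37.7 TPM and its highest cell 562 TPM at 14 months, against 51.4 TPM and 790 TPM at 4 months. Mean TPM was close in the ages, 123 TPM at 14 months and 119 TPM at 4 months. Mean log2(TPM+1) of Mef2c was 4.66 (SD 3.27) at 14 months and 5.29 (SD 2.73) at 4 months. The gene was found in 48 of 66 cells (72.7%, CI 60.4 to 83.0%) at 14 months and in 57 of 64 (89.1%, CI 78.8 to 95.5%) at 4 months. This share turns on the threshold: 9 cells of 14 months and 0 of 4 months held Mef2c above 0 but under 1 TPM, so that 57 cells of each age held it at any value above 0.

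Notch1, the receptor, was found in an intermediate share of cells and was low (chromosome 2, 26457903 to 26516663). Its median was 0 TPM in 14-month cells, against 0.905 TPM in 4-month cells. The means of 10.6 TPM and 14.3 TPM leaned on a single cell in each age, of 409 TPM at 14 months and 376 TPM at 4 months. Without those cells they were 4.51 TPM and 8.56 TPM. Notch1 was detected in 23 of 66 cells (34.8%, CI 23.5 to 47.6%) at 14 months and 32 of 64 (50.0%, CI 37.2 to 62.8%) at 4 months. At least 100 TPM was reached in 2 cells of each age. The log2 mean was 1.16 (SD 1.85) at 14 months and 1.91 (SD 2.13) at 4 months.

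The 2 E proteins of the list differed widely in level. Tcf4, which encodes E2-2, an E protein required for plasmacytoid dendritic cells (chromosome 18, 69343356 to 69689079), had the highest share of the list at 14 months and shared it with Mef2c at 4 months. Its median was 56.8 TPM and its highest cell 1206 TPM at 14 months, against 94.8 TPM and 800 TPM at 4 months, with log2 means of 4.92 (SD 2.97) and 5.86 (SD 2.53). It was detected in 54 of 66 cells (81.8%, CI 70.4 to 90.2%) at 14 months and 57 of 64 (89.1%, CI 78.8 to 95.5%) at 4 months. Tcf3, which encodes E2A, needed for B lineage specification (chromosome 10, 80409514 to 80433647), was detected in 12 of 66 cells (18.2%, CI 9.76 to 29.6%) at 14 months and 24 of 64 (37.5%, CI 25.7 to 50.5%) at 4 months. Its log2 mean was 0.85 (SD 1.95) at 14 months and 1.27 (SD 1.92) at 4 months. Its mean TPM differed widely between the 14-month sets, with 22.1 TPM in set 4 and 1.33 TPM in set 5. The 3 cells of 14 months at 100 TPM or more were all of set 4. Without the highest cell of each set the means were 14.2 TPM and 0.783 TPM.

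Foxo1, a forkhead factor held back by Akt signalling (chromosome 3, 52268336 to 52353221), was found in 4 of 66 cells at 14 months (6.06%, CI 1.68 to 14.8%) and 3 of 64 at 4 months (4.69%, CI 0.977 to 13.1%). Its highest cells were at 22.3 TPM and 79.8 TPM. Sox4, a SoxC factor needed for B cell development in the mouse (chromosome 13, 28948919 to 28953713), was of intermediate share and low. It was detected in 31 of 66 cells (47.0%, CI 34.6 to 59.7%) at 14 months and 44 of 64 (68.8%, CI 55.9 to 79.8%) at 4 months. Its median was 0.73 TPM in 14-month cells, against 3.02 TPM in 4-month cells, and its highest cells were at 28.3 TPM and 77.9 TPM. Its log2 mean was 1.12 (SD 1.24) at 14 months and 1.99 (SD 1.62) at 4 months. At 10 TPM or more Sox4 was left in 3 cells of 14 months and 12 cells of 4 months, so most of its detected cells lay just over the threshold.

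**Figure D2:**
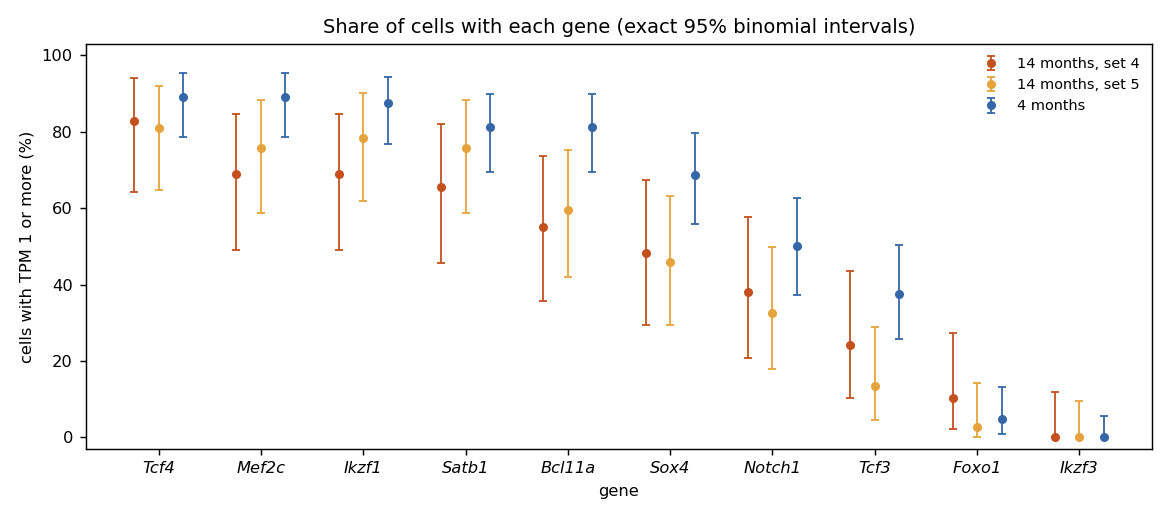
Share of kept cells with each gene at TPM 1 or more, in percent on the vertical axis, for 14-month set 4 (29 cells), 14-month set 5 (37 cells) and 4 months (64 cells) from left to right at each gene; bars are exact 95% binomial intervals. The 14-month shares of Ikzf1, Bcl11a, Satb1, Mef2c, Notch1, Tcf3, Tcf4 and Sox4 lie below the 4-month share in both sets, and the intervals overlap.

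The order of levels, by mean log2(TPM+1), was similar in the 3 sets of cells. Tcf4 led in set 4 (5.04) and at 4 months (5.86), and Mef2c led in set 5 (4.97, with Tcf4 at 4.82). Ikzf1, Satb1 and Bcl11a followed in each set, in changing order. Ikzf1 was at 3.76 in set 4, 3.90 in set 5 and 5.20 at 4 months. Satb1 was at 3.52, 4.14 and 4.02 in the same order of sets, and Bcl11a at 2.66, 2.85 and 4.04. Notch1, Sox4 and Tcf3 came next, between 0.44 (Tcf3, set 5) and 1.99 (Sox4, 4 months), and Foxo1 was at 0.36 or less. The gaps between Tcf4 and Mef2c, among Ikzf1, Satb1 and Bcl11a, and among Notch1, Sox4 and Tcf3 have no replicate check. The share of cells sets Foxo1 below Tcf3 at 4 months, where the CIs of 0.977 to 13.1% and 25.7 to 50.5% do not overlap. Satb1 stood above Ikzf1 in set 5 and below Bcl11a at 4 months.

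The age comparison asks how these transcripts differ in LMPPs of 14 months from those of 4 months. For all 8 measured members the mean log2(TPM+1) was lower at 14 months, and the same held for 77.0% of measured genes. Measured genes are those whose share of cells, averaged over the ages, reached 10%, which held for 9224 genes and left out Ikzf3 and Foxo1. The difference (14 months minus 4 months) of the median measured gene was -0.36, and differences are given relative to it. Relative to the median gene, 7 of the 8 were lower at 14 months and Satb1 was higher, with a median over the 8 of -0.45. Ikzf1 had the lowest relative difference at -1.01, lower than all but 4.92% of measured genes. Bcl11a followed at -0.91, then Tcf4 at -0.58, Sox4 at -0.51, Notch1 at -0.39, Mef2c at -0.27 and Tcf3 at -0.06. Satb1 stood at 0.21.

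Taking a relative difference of 1 or more in size as past the fold, 1 member, Ikzf1, was lower and none was higher, where 5.08% of measured genes were lower past that fold and 3.37% higher. With 8 genes, 1 call against that background is not read as a result about the list. Ikzf1 sits at the edge of the fold and Bcl11a just under it. Without the cells over 50% mitochondrial Ikzf1 was at -0.90, and with all columns, the shallow ones included, at -0.27, so the call ends there, as it does with quantile normalization (-0.52), a pseudocount of 10 (-0.67), set 5 only (-0.99) or genes in at least 30% of cells (-0.88). The intervals of the share of cells overlapped between ages for all 10 members. Over all measured genes they failed to overlap, with the share lower at 14 months, for 8.16%, and with the share higher for 0.0867%. Without 1 cell of each alike pair Ikzf1 was at -1.07, Bcl11a at -0.99 and Satb1 at 0.11.

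The 14-month sets, which are both set against the same 4-month cells, gave close values for some members and not for others. Ikzf1 was at -1.03 in set 4 and -0.99 in set 5, Bcl11a at -0.96 and -0.86, and Sox4 at -0.49 and -0.51. Tcf4 was at -0.40 and -0.71, and Notch1 at -0.31 and -0.45. Tcf3 had opposite signs, 0.52 in set 4 and -0.51 in set 5, as did Satb1, at -0.07 and 0.45. Mef2c was at -0.61 in set 4 and just above 0 in set 5. Signs differed between the sets for 3 of the 8 members and for 31.3% of all measured genes.

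**Figure D3:**
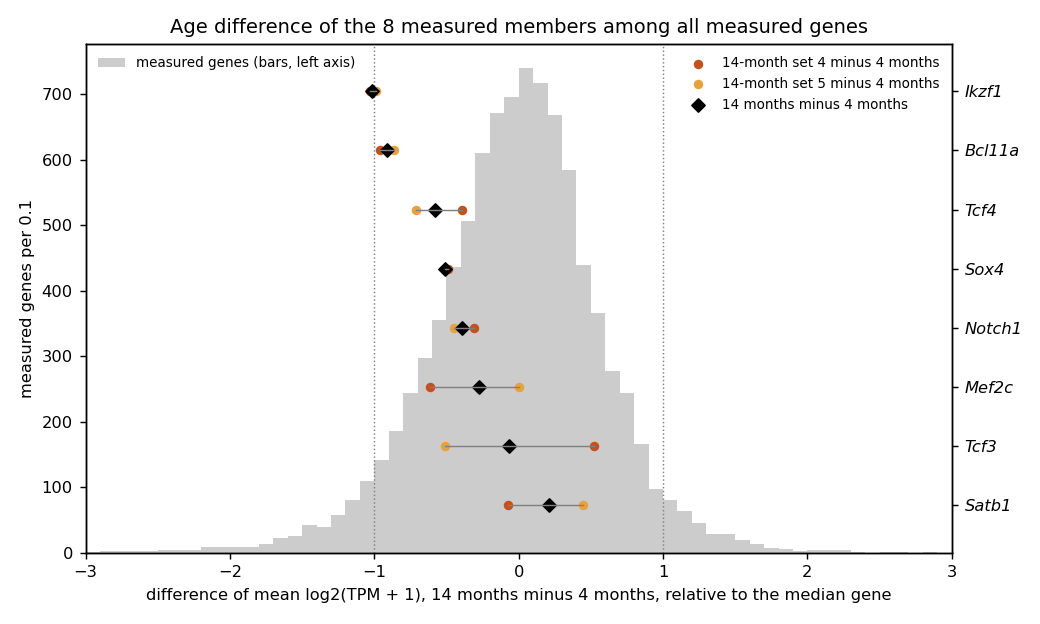
Relative difference of mean log2(TPM+1), 14 months minus 4 months, on the horizontal axis for the 8 measured members (diamonds, named on the right) and for each 14-month set against the same 4-month cells (dots), over a histogram of all 9224 measured genes (bars, left axis, genes per 0.1). Ikzf1 at -1.01 and Bcl11a at -0.91 lie near the dotted line at -1 that marks the fold and Satb1 at 0.21 is the highest member.

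Fewer of the 10 genes were found in a cell of 14 months. The number of members detected per cell was 4.64 ± 1.79 at 14 months and 5.89 ± 1.79 at 4 months (SD over 66 and 64 cells). At least 5 members were found in 38 of 66 cells (57.6%, CI 44.8 to 69.7%) at 14 months and 53 of 64 (82.8%, CI 71.3 to 91.1%) at 4 months. These intervals do not overlap, but they cover counting error only, and the intervals of each single member did overlap. No such share is given for matched cells or for other lists of 10 genes, so it is not read as a result about the list. Set 4 averaged 4.62 members and set 5 averaged 4.65. All 10 were never found together, 9 were found in 1 cell of 4 months, and none was found in 1 cell of each age. The number of members moved with the number of all genes detected, with a Pearson correlation over cells of 0.70 at 14 months and 0.67 at 4 months. A member was detected on average in 46.4% of 14-month cells, against 58.9% of 4-month cells. Each measured gene was detected on average in 32.4% of 14-month cells, against 41.0% of 4-month cells. The shift in the members thus ran beside a shift in detection of the whole transcriptome.

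**Figure D4:**
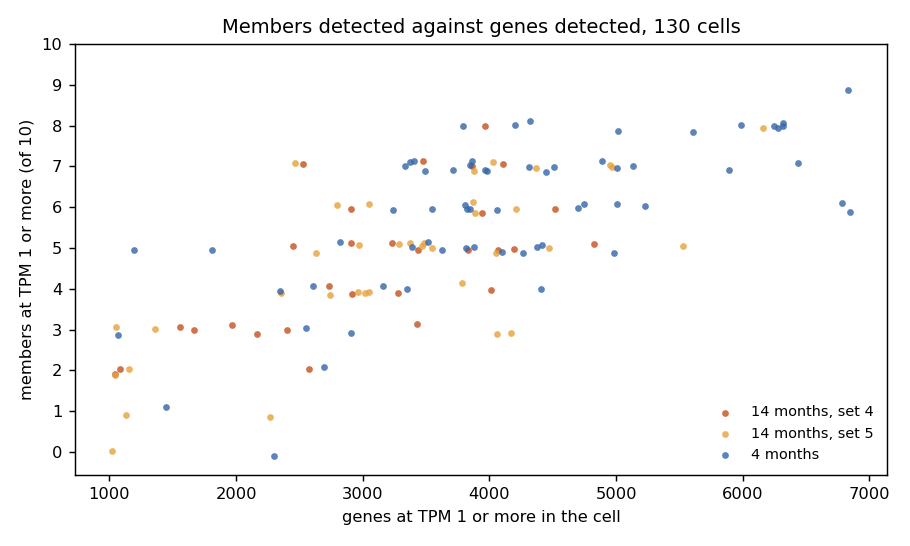
Number of the 10 members at TPM 1 or more (vertical axis, points spread slightly) against the number of all genes at TPM 1 or more (horizontal axis) in each of the 130 kept cells, coloured by set. Cells with more genes detected had more members, and 14-month cells lie mostly at lower numbers of genes.

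Detection was then held level in a pair of ways. In 3 bins of about equal size over all kept cells, with bounds at 3230 and 4064 genes, the members detected per cell averaged 3.69 ± 1.73 in 32 cells of 14 months and 3.25 ± 1.60 in 12 cells of 4 months in the lowest bin. They averaged 5.33 ± 1.35 in 21 cells and 6.18 ± 1.01 in 22 cells in the middle bin, and 5.85 ± 1.34 in 13 cells and 6.73 ± 1.26 in 30 cells in the highest bin (SD over cells). The order of the ages thus turned round in the lowest bin, where only 12 cells were of 4 months. The gaps were within 1 SD in each bin, as was the gap over all kept cells. That SD is the spread between cells and does not measure the error of a gap between means. Bcl11a was found in 43.8% of 14-month and 41.7% of 4-month cells in the lowest bin and in 76.2% and 86.4% in the middle bin. In the highest bin it was found in 8 of 13 cells of 14 months (61.5%) and 28 of 30 cells of 4 months (93.3%). Those 14-month cells were 2 of 5 in set 4 and 6 of 8 in set 5. No share over all genes is given per bin. Even in the highest bin the 14-month cells had fewer genes, with medians of 4468 and 5008.5.

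In 46 cells of each age matched on genes detected within 10%, the members averaged 5.13 ± 1.59 per cell at 14 months and 5.43 ± 1.82 at 4 months. Ikzf1 was then found in 38 of 46 cells in each age, and its levels were lower at 14 months. In matched cells with Ikzf1 the median was 35.7 TPM in 14-month cells, against 89.0 TPM in 4-month cells, and 100 TPM was reached in 10 and 18 cells. Its relative difference was -1.09. Bcl11a was found in 28 of 46 matched cells at 14 months (60.9%, CI 45.4 to 74.9%) and 35 of 46 at 4 months (76.1%, CI 61.2 to 87.4%). For 3 other genes the order of the shares turned round in matched cells, by few cells and with overlapping CIs. Satb1 was found in 36 cells of 14 months (78.3%) and 34 of 4 months (73.9%). Mef2c and Tcf4 were each found in 40 (87.0%) and 39 (84.8%). The matched 14-month cells had a median of 3847 genes detected and the matched 4-month cells 3752. Satb1 also had the higher log2 mean at 14 months, 4.03 (SD 2.96) against 3.56 (SD 2.66). Mef2c did too, with a mean log2(TPM+1) of 5.52 (SD 2.85) at 14 months and 4.79 (SD 2.94) at 4 months. Its relative difference there was 0.65 in place of -0.27.

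The commonly detected members were often found together. All 5 of Tcf4, Mef2c, Ikzf1, Satb1 and Bcl11a were present in 20 of 66 cells (30.3%, CI 19.6 to 42.9%) at 14 months and 42 of 64 (65.6%, CI 52.7 to 77.1%) at 4 months. If the 5 were detected independently within an age, the shares would be 18.1% and 45.8%. None of the 5 was found in 1 cell of 14 months and 2 cells of 4 months. The full set was found in 17.2% of set 4 cells (CI 5.85 to 35.8%) and 40.5% of set 5 cells (CI 24.8 to 57.9%), and these intervals overlap. These shares are given for all kept cells only, the alike pairs included. Shares of this kind follow the number of genes detected in a cell, and its part in them was not tested.

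Pair by pair, the ratio of co-detection to independence had a median near 1, a value that common genes partly fix in advance. Over the 28 pairs of measured members, the observed share of cells with both genes was divided by the share under independence. Independence was taken within each set, and the sets of 14 months were then summed. The ratio had a median of 1.07 at 14 months and 1.06 at 4 months. The ratios ran from 0.88 to 1.44 at 14 months and from 0.97 to 1.17 at 4 months. Over all 42536476 pairs of measured genes the medians were 1.125 and 1.11, a little above those of the member pairs. These medians are not like with like. Within a set the ratio cannot exceed 1 divided by the larger share of the pair, which holds common genes near 1. Tcf4, for one, was detected in 89.1% of 4-month cells. Each measured gene was detected on average in 32.4% of 14-month and 41.0% of 4-month cells. No conclusion on the members is drawn from the ratios. The Spearman correlation of log2(TPM+1) over cells, averaged over set 4, set 5 and 4 months, had a median of 0.08 over the 28 pairs and of 0.075 over all pairs. Both genes of a pair share the cell's library and its number of genes detected. After correction for genes detected, the median of the member pairs was 0.02.

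Bcl11a and Notch1 were the pair with the highest correlation, at 0.28 in set 4, 0.47 in set 5 and 0.34 at 4 months (29, 37 and 64 cells), a mean of 0.36. It was 0.28 after correction for genes detected and 0.39 without 1 cell of each alike pair. Both were found in 19 of 66 cells at 14 months, 28.8% against 20.0% under independence, and in 28 of 64 at 4 months, 43.8% against 40.6%. The pair was singled out after its value was seen, as the highest of 28, and 99.62% of all pairs of measured genes lay below it. Ikzf1 with Satb1 (0.18, 0.19 and 0.37 in the same order of sets) and with Mef2c (0.16, 0.30 and 0.25) had means of 0.25 and 0.24. Mef2c with Satb1 also averaged 0.25, from 0.07 in set 4 to 0.46 at 4 months. Notch1 with Tcf4 changed sign, at -0.40 in set 4, 0.37 in set 5 and 0.31 at 4 months. Ikzf1 with Bcl11a, the members furthest below the median gene, stood at -0.01. Foxo1 and Tcf3 met in 2 of the 4 cells with Foxo1 at 14 months and in all 3 at 4 months. Their ratios to independence, 2.33 and 2.67, were the highest of the Foxo1 pairs and rest on these few cells. Foxo1 with Mef2c had ratios of 0.35 and 0.75, and with Satb1 of 0.73 and 0.82.

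**Figure D5:**
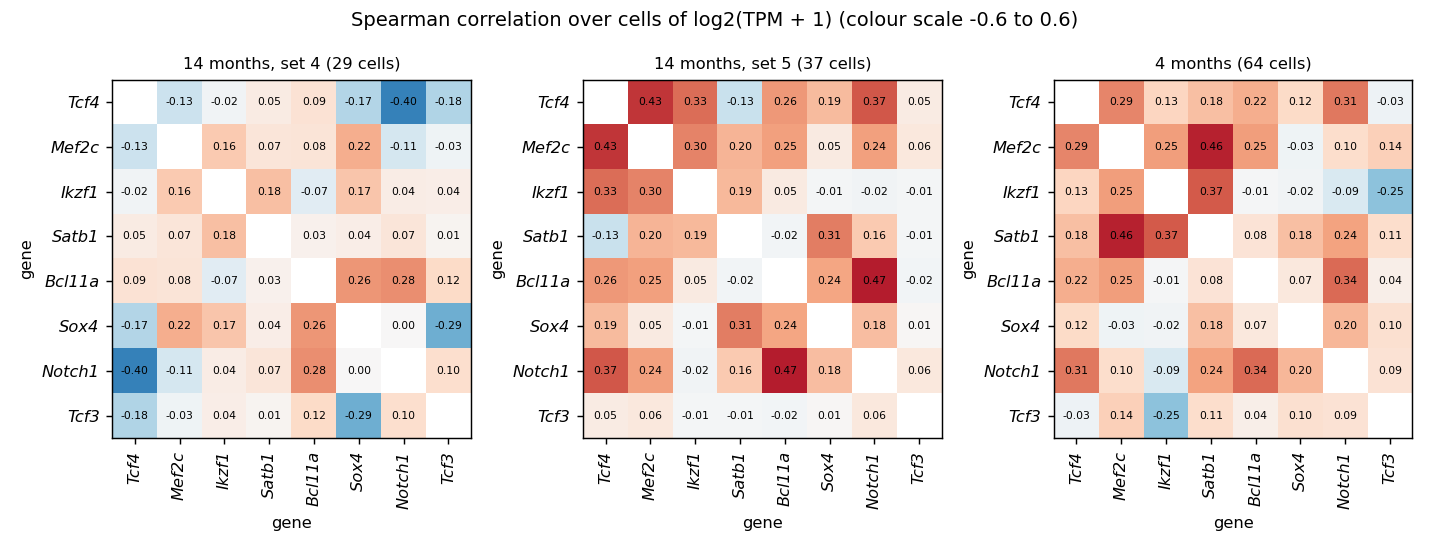
Spearman correlation over cells of log2(TPM+1) for each pair of the 8 measured members in 14-month set 4, 14-month set 5 and 4 months, from left to right, with genes on both axes and the colour from -0.6 to 0.6. Bcl11a with Notch1 is positive in all 3 panels (0.28, 0.47 and 0.34), while Notch1 with Tcf4 is -0.40 in the first and positive in the others.

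Genes whose levels ran most alike to each member were sought among the 4856 measured genes that 20% or more of the cells held in both ages. The likeness is the mean Spearman correlation over the 3 sets, and the named genes are from the 2 highest per member. They are the highest of that many candidates, so their values are a description of these cells. Mef2c was most like Hspa8 (0.49) and Ing2 (0.48), and Satb1 most like Mcmbp (0.46) and Rac2 (0.42). Notch1 was nearest to Txndc9 and Klf2 (0.44 each), Tcf4 to Mmgt2 (0.43), and Sox4 to Chchd2 (0.42) and Kpna4 (0.41). Bcl11a had B2m (0.41) and Skil (0.39), Tcf3 had Brip1 (0.39) and Pmpca (0.37), and Ikzf1 had Naa16 and Ddx1 (0.36 each). Values for Ikzf1 were uneven over the sets, with 0.53 in set 5 and 0.10 at 4 months for Naa16. None of these nearest genes is another member. Without 1 cell of each alike pair Skil moved to rank 9, Rac2 to 5, Mmgt2 and Pmpca to 4 and Klf2 to 3, and after correction for genes detected Txndc9 moved to rank 12.

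The partners of these factors showed no shared direction. As background for the counts that follow, 5.08% of all measured genes were lower past the fold and 3.37% higher. In the list of Ikaros and Bcl11 relatives and their cofactors, 4 of 8 genes were measured and none passed the fold in either direction, and the list's median was -0.18. Ikzf2, which encodes Helios, was at 0.59 and Chd4, a remodeler that binds Ikaros, at -0.01, while Mta2 was at -0.35 and Ikzf5 at -0.45. Ikzf4 and Bcl11b were at 0 in every kept cell. Of 7 measured genes among E protein partners and Id inhibitors, 1 was lower past the fold and none higher. That gene was Lyl1, a haematopoietic basic helix-loop-helix factor that pairs with E proteins, at -2.29 (-2.50 and -2.11 in sets 4 and 5). Its transcript was present in 22 of 66 cells at 14 months (33.3%, CI 22.2 to 46.0%) and 45 of 64 at 4 months (70.3%, CI 57.6 to 81.1%). Its mean was 15.6 TPM in 14-month cells, against 82.9 TPM in 4-month cells. Ldb1, an adaptor of the same complex, was at -0.98. Id2, an inhibitor of E proteins, was at 0.59, and Tcf12, which encodes the E protein HEB, at 0.54.

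Among MEF2 relatives and class IIa deacetylases, which bind and repress MEF2 factors, none of 6 measured genes passed the fold. Hdac9 and Hdac4 were at 0.74 and 0.50, and Hdac7 and Hdac5 at -0.91 and -0.21. Of 11 measured Notch pathway genes, Adam10, the protease that cleaves the receptor at the surface, was higher past the fold and Notch2 lower. Adam10 was at 1.18 (0.59 in set 4 and 1.66 in set 5) and Notch2 at -1.11 (-0.74 in set 4 and -1.38 in set 5). Ncstn, a gamma-secretase subunit, was at 0.92 and Psen2, another, at -0.56. The ligand gene Dll1 and the Notch targets Dtx1 and Nrarp were at 0 in every kept cell. Of 9 measured FoxO relatives and regulators, 1 was higher and 1 lower past the fold, the lower one being Klf2, a FoxO1 target in lymphocytes, at -1.87. Akt1 was at 0.22 and the cyclin gene Ccng2 at -0.74. None of 6 measured SoxC and TGF-beta genes passed the fold, with Smad2 at 0.79, Tgfbr2 at 0.31, Smad3 at -0.35 and Smad4 at -0.32.

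Of 18 genes on which these factors act or that mark lymphoid commitment, 9 were measured, 3 were higher past the fold and none lower. The list's relative median was 0.49, while that of the 8 members was -0.45. Both lists were chosen with earlier results of these data known, so this contrast is a description only. Dntt, at 1.60 (0.94 in set 4 and 2.12 in set 5), and Il7r, at 1.29, were among the 3, and Cd79b and Lck were the lowest of the list, at -0.76 and -0.57. Among 12 myeloid counterparts, all measured, 2 were higher past the fold, Ctsg at 1.43 and Elane at 1.04, and none lower. Elane was at 0.51 in set 4 and 1.47 in set 5. The relative median of the myeloid list was -0.15, with 8 genes below the median gene and 4 above. Irf8 and Csf3r were the lowest, at -0.64 and -0.59. Over all measured genes the median is 0 by construction, with 3.37% higher past the fold and 5.08% lower.

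The mean number of members per cell was higher in cells that had Dntt, which encodes the lymphoid enzyme terminal transferase. Cells with Dntt held 4.82 members on average at 14 months (57 cells) and 6.33 at 4 months (48 cells). Cells without it held 3.44 at 14 months (9 cells) and 4.56 at 4 months (16 cells). Single members could run the other way, as Tcf3 did at 14 months, with 17.5% of cells with Dntt and 22.2% of those without, and Foxo1, with 5.26% and 11.1%. In set 4 so did Bcl11a (54.2% and 60.0%) and Notch1 (37.5% and 40.0%). Cells with Mpo, the myeloid enzyme myeloperoxidase, likewise held more members than cells without it, 5.02 against 4.00 at 14 months and 6.46 against 5.21 at 4 months. Within set 4 the means were 4.69 with Mpo and 4.54 without it, and within set 5 they were 5.24 and 3.42, so at 14 months the gap rests on set 5. With and without Dntt, set 4 had 4.79 and 3.80 members per cell and set 5 had 4.85 and 3.00. Cells with either enzyme also had more genes detected, with medians of 3376 against 2916 genes for Dntt at 14 months and 4319.5 against 3359 at 4 months, and of 3874 against 2631 and 4414 against 3494 for Mpo. Set 5 differed, with 3376 genes in cells with Dntt and 3540 in the 4 cells without it. At 14 months Mef2c was found in 45 of 57 cells with Dntt (78.9%, CI 66.1 to 88.6%) and 3 of 9 without it (33.3%, CI 7.49 to 70.1%), but at 4 months in 89.6% and 87.5%. Ikzf1 was found in 35 of 41 cells with Mpo at 14 months (85.4%, CI 70.8 to 94.4%) and in 14 of 25 without (56.0%, CI 34.9 to 75.6%), so it was not confined to cells lacking the myeloid gene. Satb1 at 4 months was found in 43 of 48 cells with Dntt (89.6%, CI 77.3 to 96.5%) and 9 of 16 without (56.2%, CI 29.9 to 80.2%).

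Since Tcf4 is also a factor of plasmacytoid dendritic cells, their markers are given beside it. The summed level of the 5 markers ran from 0 to 1008 TPM at 14 months (median 0) and from 0 to 765 TPM at 4 months (median 3.67). Siglech was detected in 1 cell of 14 months and 4 cells of 4 months and Cd209d in none, against 54 and 57 cells with Tcf4. Bst2 was found in 16 cells of 14 months and 18 of 4 months, Irf7 in 9 and 18, and Ccr9 in 3 and 5. The B cell list summed to a median of 0 TPM in both ages (highest 971 TPM at 14 months and 1378 TPM at 4 months), with 3 of its 8 genes at 0. The T cell list summed to a median of 0 TPM at 14 months (highest 874 TPM) and 3.34 TPM at 4 months (highest 595 TPM), with 3 of 7 genes at 0. The NK cell list moved with age, with a median sum of 162 TPM at 14 months (0 to 4136 TPM) and 19.7 TPM at 4 months (0 to 1615 TPM). That sum came almost wholly from Nkg7, found in 72.7% and 54.7% of cells, while Ncr1, Gzmb and Prf1, 3 of the 5 genes, were at 0. The neutrophil list was at a median of 0 TPM in both ages but reached 364930 TPM in a 14-month cell and 974 TPM at 4 months, and the monocyte list reached 7744 TPM at 14 months and 212 TPM at 4 months. The part of such cells in the members' differences was not tested.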

How the data were processed

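RNA of single sorted LMPPs was measured in 168 columns of TPM deposited by the authors. Bowtie2 2.2.0, RSEM 1.2.12 and build mm10 were used to make them, per the submitters' processing notes. TPM sums to 1000000 in each column, so depth is unknown and the genes detected per cell were used in its place. Coordinates come from the GENCODE annotation of that build, and symbols, found for 37607 of 38924 identifiers, from a table of gene names. Cells with at least 1000 genes at TPM 1 or more entered the analysis. Doublets were not called. Means used log2(TPM+1), with a pseudocount of 1, which understates differences of low genes. Shares carry exact (Clopper-Pearson) 95% intervals.

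The members and lists were chosen with earlier results of these data known. All 10 members are reported, with the 2 genes most like each member (pseudogenes, predicted genes and mitochondrial transcripts set aside) and the 2 highest and 2 lowest measured genes of each partner list. Some genes at 0 throughout, and marker genes, are named besides. A few genes that these rules take are not reported here. Alternatives varied the pseudocount, the filters on genes and cells, the scaling, the sets and the summary over cells. Steps were checked on simulated data. Software was matplotlib 3.10.9, scipy 1.17.1, pandas 2.3.3 and numpy 2.4.6 under Python 3.11.15.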

Additional observations from a re-analysis of the deposited data

Results flagged for a closer look

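Some members were detected in the columns left out for having fewer than 1000 genes. Those flagged were in more than 3 columns, the limit that a count of 0 allows. That is 16.7% of the 18 columns of 14 months and 15.0% of the 20 columns of 4 months. The limit only chose which members to flag and is not a noise level. In the left-out 14-month columns Mef2c was found in 38.9% (7 columns), Ikzf1 in 33.3% (6 columns, up to 1173 TPM) and Tcf4 in 22.2% (4 columns). In the left-out 4-month columns Sox4 was found in 25.0% (5 columns, up to 18.0 TPM) and Tcf4 in 20.0% (4 columns, up to 16253 TPM). Ikzf1 was in 0 of the 20 left-out 4-month columns. Of the 18 left-out 14-month columns, 16 belong to set 4.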

How the results depend on the processing

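The number of members lower past the fold, 1 as reported, was 2 with a pseudocount of 0.1, 2 with no filter on low values and 3 with medians over cells. The share of all measured genes lower past the fold was 11.8% with a pseudocount of 0.1, 4.99% with no filter and 17.0% with medians over cells, against 5.08% as reported. The number of members was 0 with a pseudocount of 10, with genes in at least 30% of cells, with all columns, with quantile normalization, without cells over 50% mitochondrial and with set 5 only. No member was higher past the fold under these settings. The median relative difference of the members stayed negative under the settings run, between -0.83 (medians over cells) and -0.08 (quantile normalization). Over the same settings Ikzf1 ran from -2.31 to -0.27, Bcl11a from -1.70 to -0.45, Satb1 from -0.07 to 0.45, Tcf3 from -0.51 to 0.52 and Mef2c from -0.61 to 0.65. Mef2c was above the median gene with all columns (0.27) and in matched cells (0.65). Quantile normalization set the median gene's difference to -0.09 and matching set it to 0.07, in place of -0.36. The cause of these shifts was not tested. Leaving out 1 cell of each alike pair was chosen after seeing the data. No paired analysis was possible because the numbers in the labels only name cells, each age is 1 sample, and the columns carry no matching number. With 1 sample per age the differences have no replicate check, depth is unknown, and age and capture cannot be told apart.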
